A study of Mus musculus with 8 samples.

Results

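The 32 genes described here encode the proteins that carry glucose into a cell, split it to pyruvate, exchange pyruvate with lactate and admit pyruvate to the mitochondrion. They were found by gene symbol, and all 32 were among the 32285 features of the deposited tables. The data were 4 Visium sections, in which RNA was captured on a grid of spots that each cover a small region of tissue, and 4 droplet libraries of single cells from hearts. All mice were wild-type male C57BL/6J animals, 8 weeks old when the experiment began, that had sham surgery or transverse aortic constriction (TAC), in which a ligature around the aortic arch raises the pressure against which the left ventricle works. Each assay had 1 sample from sham hearts and 1 each from hearts 2, 4 and 6 weeks after TAC (TAC-2w to TAC-6w), and neither the weeks between sham surgery and sampling nor the hearts behind each sample are known here.

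Glucose enters heart cells through facilitative transporters of the GLUT family, is trapped as glucose 6-phosphate by hexokinase, is committed to glycolysis by phosphofructokinase and leaves the cytosolic pathway as pyruvate or lactate. Many steps have a muscle form and a form found widely in other cells, such as Slc2a4 and Slc2a1 (GLUT4 and GLUT1), Eno3 and Eno1, and Pgam2 and Pgam1. Lactate dehydrogenase has a heart subunit, Ldhb, beside a muscle subunit, Ldha. The adult heart burns mainly fatty acids, and a larger part for glucose together with a return of widely expressed isoforms is known from hearts under pressure load.

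With 1 sample per condition no difference could be tested against the spread between hearts, so no p-value is given. Values are unique molecular identifiers (UMIs, 1 per captured transcript) per 1000000 UMIs (CPM), counted over all spots of a section, with mitochondrially encoded genes left out of the total. These counts come from the 3′ ends of transcripts and were not divided by gene length, so a level is compared between samples and not between genes. Each interval is an exact 95% interval for counting error only. A member was called higher or lower at a ratio to sham of 1.5 or more, or its inverse or less, with at least 50 UMIs in either section. The sections held 1676, 2063, 1228 and 2193 spots from sham to TAC-6w in the order of time, an order kept throughout, and 12605071 to 27584064 UMIs after mitochondrial genes, which took 51.5% of all UMIs in the sham section and 42.2% to 44.2% in the others, were left out. By the labels, batch 1 held 2 of the sections, sham and TAC-2w, while TAC-4w formed batch 2 and TAC-6w batch 3, so at 4 and 6 weeks batch and condition cannot be told apart. All comparisons use the same sham section. A second set of ratios came from spots of 20000 to 30000 UMIs, of which there were 488, 1309, 371 and 383. These limits count all UMIs, mitochondrial ones included. Without them the spots held 5776276, 18494582, 5392584 and 5344489 UMIs, which per spot is fewest in sham. Matched depth below thus refers to all UMIs, and percentages of spots with a UMI are not matched for the UMIs without mitochondrial genes. The 6 cardiomyocyte markers were all detected in every section, at a summed 45962, 44436, 44031 and 40517 CPM, while the 3 atrial genes checked summed to no more than 4.28 CPM, so the sections were ventricular muscle by these genes. A lower level in a section cannot tell fewer cells of a type from less RNA per cell.

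With mitochondrial genes left out, the summed level of the 32 members was lowest in the TAC-4w section and close together in the other sections. It was 22823 CPM in sham, 22079 in TAC-2w, 18551 in TAC-4w and 21769 in TAC-6w, and 23116, 22228, 18296 and 21752 CPM in spots of matched depth. With mitochondrial genes kept in, members made up 287684 of 25996378 UMIs in sham and 609016 of 48754396 in TAC-2w. In TAC-4w they made up 342506 of 31942372 and in TAC-6w 587002 of 48288659. By this total TAC-4w was still lowest, but sham lay nearer to it than to TAC-2w or TAC-6w. At 2 weeks, 0 members were called higher and 1, Pfkfb3, was called lower among the 29 with enough UMIs, where 1.61% of all genes were called higher and 9.93% lower. At 4 weeks, 2 of 30 were higher (Pfkfb3 and Slc16a3) and 5 lower (Hk2, Pfkfb2, Eno3, Pkm and Pdhb), where 7.53% of all genes were higher and 6.23% lower. At 6 weeks, 2 of 31 were higher (Pfkp and Slc16a3) and 0 lower, against 8.52% and 2.04% of all genes. The share of members called lower thus stood above that of all genes at 4 weeks, and each other count was of 2 members or fewer. The median member ratio was 0.914 at 2 weeks, 0.820 at 4 weeks and 0.971 at 6 weeks, beside 0.885, 0.974 and 1.07 over all genes with enough UMIs.

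At matched depth the calls were nearly the same. Pfkfb3 alone was lower at 2 weeks (2.02% of all genes higher and 11.4% lower). At 4 weeks Pfkfb3 was higher and Hk2, Pfkfb2, Eno3, Pkm, Pdhb and Slc2a4 were lower (6.31% and 7.41%). At 6 weeks Pfkp was higher (5.79% and 2.34%), and Slc16a3 had too few UMIs to be read at either time. The choice of total moved every ratio, because mitochondrial UMIs took more of the sham section. The median of all genes stood at a log2 ratio of -0.18, -0.04 and 0.10 at 2, 4 and 6 weeks with mitochondrial genes left out and at 0.05, 0.22 and 0.31 with them kept in. Of the members read, 15, 24 and 16 stayed on 1 side of a ratio of 1 in every setting tried at 2, 4 and 6 weeks, and a member named below as on either side is among these unless another value is given.

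**Figure D1:**
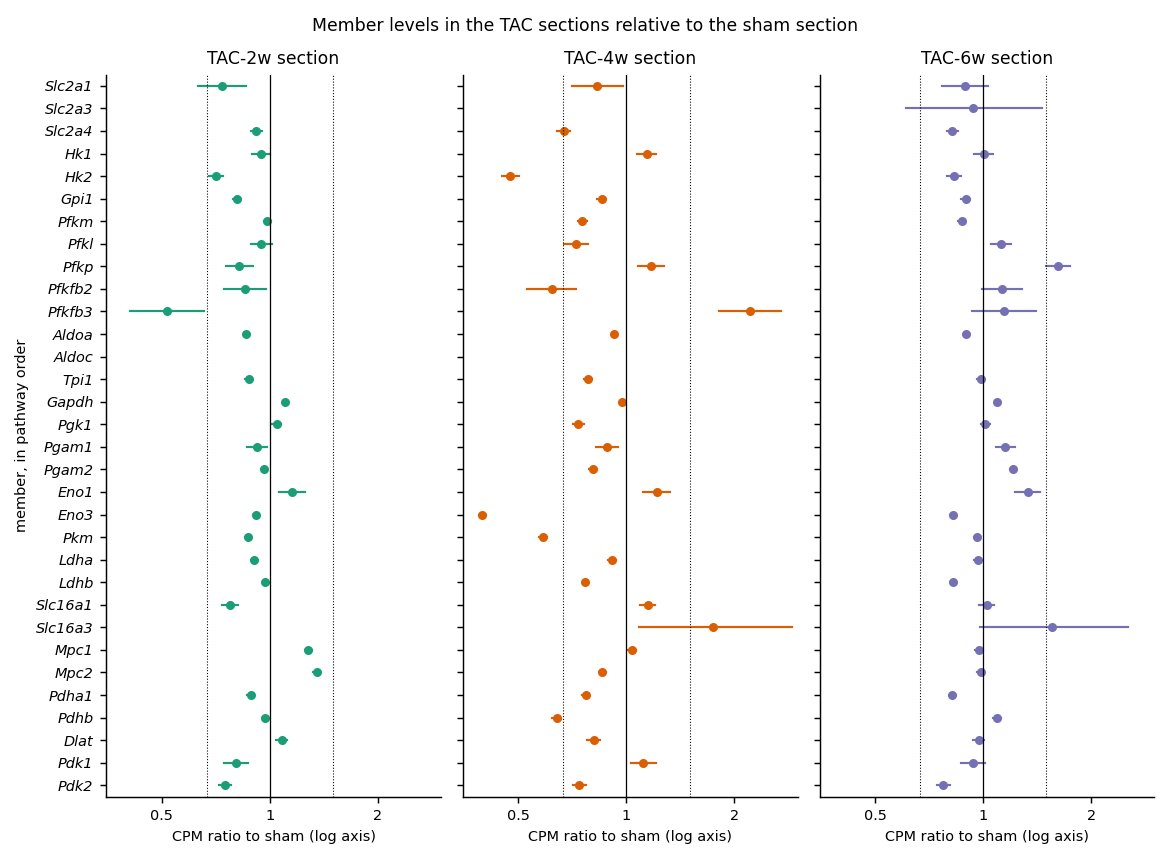
The points give each member's CPM in a TAC section divided by that in the sham section, on a log axis, with exact 95% intervals for counting error (lines), a solid line at 1 and dotted lines at the 1.5-fold limits. The TAC-4w panel holds the widest spread, from Eno3 at 0.396 to Pfkfb3 at 2.20, and Aldoc has no point because it had too few UMIs.

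Promoter windows of 300 bases, from 250 bases before to 50 after a RefSeq transcription start (GRCm38.p6), were read for 30 of the members, with Slc2a3 and Slc2a4 not matched. They were searched on both strands for ACGTG and GCGTG, the letters that hypoxia-inducible factors and other basic helix-loop-helix factors are known to bind, and for the consensus of MEF2, a factor of muscle genes. Where the palindrome CACGTG stood, it counted as 1 match on each strand. ACGTG was found in 44.7% of the 47 member windows and in 19.6% of the 32851 windows searched, which left out 1 chromosome. GCGTG was found in 55.3% against 32.4%, either of them in 76.6% against 43.8%, and the MEF2 consensus in 2.13% against 3.19%. The 47 windows belong to 30 genes, some with more than 1 start, so a gene can count more than once. A match is a description of the letters and not of a bound site. The windows below are printed 5′ to 3′ on the strand of the gene and at its most upstream listed start. They belong to the lactate dehydrogenase and enolase pairs, to the regulator Pfkfb3 and to Pgam2, and capitals mark the matches.
Ldha, chr7:46845554-46845853, plus strand: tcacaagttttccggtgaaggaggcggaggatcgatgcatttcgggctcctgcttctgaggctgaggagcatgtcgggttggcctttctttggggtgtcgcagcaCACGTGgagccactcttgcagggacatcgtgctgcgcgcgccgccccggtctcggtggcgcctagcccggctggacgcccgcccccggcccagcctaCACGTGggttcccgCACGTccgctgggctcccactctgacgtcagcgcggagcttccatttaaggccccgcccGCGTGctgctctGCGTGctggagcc
Ldhb, chr6:142507908-142508207, minus strand: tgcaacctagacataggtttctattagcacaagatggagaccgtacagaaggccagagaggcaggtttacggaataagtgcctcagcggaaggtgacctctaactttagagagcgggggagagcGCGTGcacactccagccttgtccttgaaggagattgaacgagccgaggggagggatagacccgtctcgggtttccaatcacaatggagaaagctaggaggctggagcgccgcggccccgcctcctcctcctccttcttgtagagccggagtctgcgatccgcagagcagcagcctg
Eno1, chr4:150236458-150236757, plus strand: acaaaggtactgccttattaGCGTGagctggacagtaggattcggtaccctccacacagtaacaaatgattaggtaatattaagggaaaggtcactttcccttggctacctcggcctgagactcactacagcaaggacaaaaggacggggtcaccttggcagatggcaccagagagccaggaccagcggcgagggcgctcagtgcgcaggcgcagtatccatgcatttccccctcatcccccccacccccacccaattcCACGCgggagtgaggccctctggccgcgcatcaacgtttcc
Eno3, chr11:70656926-70657225, plus strand: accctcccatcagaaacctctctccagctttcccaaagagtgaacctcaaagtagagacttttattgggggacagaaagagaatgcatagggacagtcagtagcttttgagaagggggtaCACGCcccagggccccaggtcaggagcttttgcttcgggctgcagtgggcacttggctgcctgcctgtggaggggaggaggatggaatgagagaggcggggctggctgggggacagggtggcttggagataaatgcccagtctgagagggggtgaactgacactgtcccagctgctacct
Pfkfb3, chr2:11553880-11554179, minus strand: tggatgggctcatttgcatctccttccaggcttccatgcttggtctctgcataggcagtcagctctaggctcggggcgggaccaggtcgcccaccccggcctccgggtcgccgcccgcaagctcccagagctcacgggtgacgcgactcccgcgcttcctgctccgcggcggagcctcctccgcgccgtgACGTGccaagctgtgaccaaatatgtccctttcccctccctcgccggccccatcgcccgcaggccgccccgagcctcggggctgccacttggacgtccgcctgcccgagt
Pgam2, chr11:5803747-5804046, minus strand: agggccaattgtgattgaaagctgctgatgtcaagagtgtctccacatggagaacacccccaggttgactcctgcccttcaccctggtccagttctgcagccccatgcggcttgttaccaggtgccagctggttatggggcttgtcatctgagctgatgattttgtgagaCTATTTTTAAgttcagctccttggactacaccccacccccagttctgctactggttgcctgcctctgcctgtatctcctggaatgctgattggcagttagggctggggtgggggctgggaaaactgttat
The Ldha window held 7 matches at 5 places, the Eno1 window 2, and the Ldhb, Eno3 and Pfkfb3 windows 1 each. Pgam2, the muscle phosphoglycerate mutase, was the 1 member with the MEF2 consensus and had neither other motif.

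Among the glucose transporters, the insulin-responsive muscle form was lower in all TAC sections with mitochondrial genes left out, most so at 4 weeks. Slc2a4 (ENSMUSG00000018566) stood at 368, 337, 246 and 302 CPM in the 4 sections. Its ratio to sham was 0.917 (0.885 to 0.9497) at 2 weeks, 0.669 (0.642 to 0.697) at 4 weeks and 0.821 (0.791 to 0.851) at 6 weeks, but with mitochondrial genes kept in the 2-week ratio was 1.07. The 4-week value lay just outside the limit for a call, and at matched depth, at 0.646 (0.602 to 0.692), just inside it. Slc2a1 (GLUT1), which carries basal glucose uptake in most cells, was also below sham, at 22.1, 16.3, 18.4 and 19.7 CPM, with ratios of 0.735 (0.632 to 0.857), 0.830 (0.706 to 0.975) and 0.891 (0.770 to 1.03). The last interval includes 1, and with mitochondrial genes kept in that ratio was 1.03, so the widely expressed transporter was not called higher in any section. Slc2a3 (GLUT3), a high-affinity transporter of neurons and blood cells, had only 34, 39, 41 and 68 UMIs, and its 1 ratio with enough UMIs was 0.935 (0.611 to 1.46) at 6 weeks.

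The hexokinases, which phosphorylate glucose, diverged at 4 weeks. Hk2 (ENSMUSG00000000628), the form that binds mitochondria in muscle, stood at 252, 179, 119.7 and 209 CPM. All TAC sections were below sham and TAC-4w was the lowest, with ratios of 0.709 (0.678 to 0.741), 0.475 (0.450 to 0.502) and 0.830 (0.795 to 0.867). Matched spots gave 0.488 (0.444 to 0.536) at 4 weeks, and 76.5% of them held an Hk2 UMI in TAC-4w beside 93.0% in sham. Hk1, the widely expressed form, was 0.944 (0.890 to 1.00), 1.14 (1.07 to 1.21) and 1.00 (0.946 to 1.07) times sham, with 128, 121, 146 and 129 CPM, so that it was a little above sham at 4 weeks, where Hk2 was lowest. Gpi1, the isomerase that makes fructose 6-phosphate, was at 647, 524, 552 and 578 CPM, with its lowest ratio, 0.810 (0.788 to 0.833), at 2 weeks.

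Phosphofructokinase and the enzymes that set its activator included the highest ratio to sham at 4 weeks and at 6 weeks. Pfkp (ENSMUSG00000021196), the platelet-type subunit, was at 66.4, 54.7, 77.7 and 107 CPM. It was the highest in TAC-6w, at 1.62 (1.495 to 1.75) times sham and 1.74 (1.52 to 1.98) in matched spots, and its 2-week and 4-week ratios were 0.823 (0.756 to 0.897) and 1.17 (1.07 to 1.28). In matched spots a Pfkp UMI was found in 51.0%, 55.1%, 69.5% and 75.2% of spots in the order of the sections. The level in these spots was lower in TAC-2w (56.6 CPM) than in sham (64.7 CPM), so the percentages do not follow the level there. The endothelial markers, all detected, were also highest in TAC-6w, at 2521, 2065, 2782 and 3808 summed CPM. So were other lists, among them those of fibroblasts, T cells, NK cells and dividing cells. These were at 3952, 24.5, 16.9 and 63.1 CPM in TAC-6w and 3541, 5.39, 3.17 and 20.2 in sham. Smooth muscle or pericyte markers were not, at 940 and 1004 CPM. In the libraries, Pfkp was at 51 CPM in endothelial cell-like and 154 in NK cell-like cells. Its values in sham and TAC-6w cells, given with the libraries below, were lower in TAC-6w in the larger fibroblast-like and endothelial cell-like clusters. The part of any list in the Pfkp value was not tested. The muscle subunit Pfkm was at 754, 743, 568 and 656 CPM, with 0.753 (0.732 to 0.774) at 4 weeks and 0.870 (0.849 to 0.892) at 6 weeks. Pfkl, the liver-type subunit, was below sham at 4 weeks (0.725, 0.671 to 0.783) and above it at 6 weeks (1.12, 1.05 to 1.197).

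Pfkfb3 (ENSMUSG00000026773) makes fructose 2,6-bisphosphate, the strongest activator of phosphofructokinase, and is the inducible form of its family. It had 135, 153, 436 and 330 UMIs in the sections, or 10.7, 5.55, 23.6 and 12.2 CPM. The TAC-4w section was high and the TAC-2w section low, with counting intervals that did not overlap that of sham. Its ratios were 0.518 (0.408 to 0.658), 2.20 (1.81 to 2.69) and 1.14 (0.933 to 1.41), and in matched spots the first of these was 0.551 (0.396 to 0.771) and the second 2.31 (1.68 to 3.196). A Pfkfb3 UMI was seen in 11.5%, 7.56%, 27.0% and 15.7% of matched spots. The neutrophil markers were likewise highest in TAC-4w and lowest in TAC-2w, at 61.5, 10.8, 153 and 28.4 summed CPM, with 1 of the 6 at 0 in sham and the others detected. The 6 macrophage markers, all detected, had the same highest and lowest sections at 289, 225, 453 and 355 CPM, and the part of either list in the Pfkfb3 values was not tested. The heart form of the enzyme, Pfkfb2, stood at 27.2, 23.2, 16.8 and 30.7 CPM and was lowest at 4 weeks, at 0.619 (0.529 to 0.724) times sham, the section in which Pfkfb3 was highest.

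From aldolase to pyruvate kinase, the muscle enolase and pyruvate kinase stood lowest in TAC-4w. Eno3 (ENSMUSG00000060600), the muscle enolase, was at 1664, 1521, 659 and 1368 CPM. TAC-4w was far below the other sections, at 0.396 (0.387 to 0.405) times sham and 0.369 (0.355 to 0.384) in matched spots, while the 2-week and 6-week ratios were 0.914 (0.899 to 0.929) and 0.822 (0.808 to 0.836). Over single matched spots, the 90th percentile in TAC-4w was 949 CPM and the 10th percentile in sham 1120.5 CPM, so the bulk of spots in these sections did not overlap. At 2 weeks its ratio with mitochondrial genes kept in was 1.07. The sum of the cardiomyocyte markers was 44031 CPM in TAC-4w and 45962 in sham. Genes of ventricular stress were at 1015, 894, 8118 and 9328 summed CPM, high in TAC-4w and TAC-6w, and the part of either list in the Eno3 value was not tested.

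Eno1 (ENSMUSG00000063524), the widely expressed enolase, went the other way, at 63.8, 73.6, 77.4 and 84.8 CPM. Its ratios were 1.15 (1.06 to 1.254), 1.21 (1.11 to 1.32) and 1.33 (1.23 to 1.44), all above sham over all spots. In matched spots they were 1.11 (0.990 to 1.248), 1.07 (0.922 to 1.23) and 1.12 (0.971 to 1.29), all within counting error of 1. Reads of this gene can be split with a near-identical copy, Eno1b, which had 88, 91, 53 and 140 UMIs. Pkm, which encodes the pyruvate kinases M1 and M2 that these counts do not separate, was at 1109.6, 966, 651 and 1066 CPM, with 0.870 (0.853 to 0.889), 0.586 (0.572 to 0.601) and 0.961 (0.942 to 0.981) times sham, so that it too was called lower only in TAC-4w, at 0.557 (0.534 to 0.581) in matched spots. Its ratio at 2 weeks with mitochondrial genes kept in was 1.02.

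The enzymes between these steps moved less. Aldoa, the muscle aldolase, had ratios of 0.858, 0.923 and 0.894 from 3649 CPM in sham, and Tpi1, triose phosphate isomerase, of 0.875, 0.784 and 0.984 from 864 CPM. Gapdh, often taken as a constant reference, was at 3711, 4082, 3617 and 4060.2 CPM, which is 1.10 (1.09 to 1.11) times sham at 2 weeks, 0.975 (0.963 to 0.986) at 4 weeks and 1.09 (1.08 to 1.11) at 6 weeks. In matched spots it was 3862 CPM (3809 to 3915) in TAC-6w and 3804 (3754 to 3855) in sham, with intervals that overlap. Over the settings tried, its 4-week ratio ran from 0.929 to 1.16. Pgk1, phosphoglycerate kinase, was lower at 4 weeks (0.735, 0.709 to 0.761) than at 2 weeks (1.04, 1.01 to 1.08) or 6 weeks (1.01, 0.984 to 1.05). The phosphoglycerate mutases were both above sham at 6 weeks. Pgam2, the muscle form, was at 1028, 992, 829.5 and 1247 CPM, with 0.807 (0.788 to 0.826) at 4 weeks and 1.21 (1.19 to 1.24) at 6 weeks. Pgam1, the widely expressed form, was at 111, 102, 98.1 and 128 CPM, with 1.15 (1.08 to 1.23) at 6 weeks. In matched spots Pgam1 was 129 CPM (120 to 139) in TAC-6w and 117 (109 to 127) in sham, with intervals that overlap. Aldoc, the brain aldolase, had 3, 7, 0 and 7 UMIs and was too sparse to compare, and its 0 in TAC-4w allows up to 0.162 CPM. Several of these genes have processed copies elsewhere in the genome, which can take a part of their reads.

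**Figure D2:**
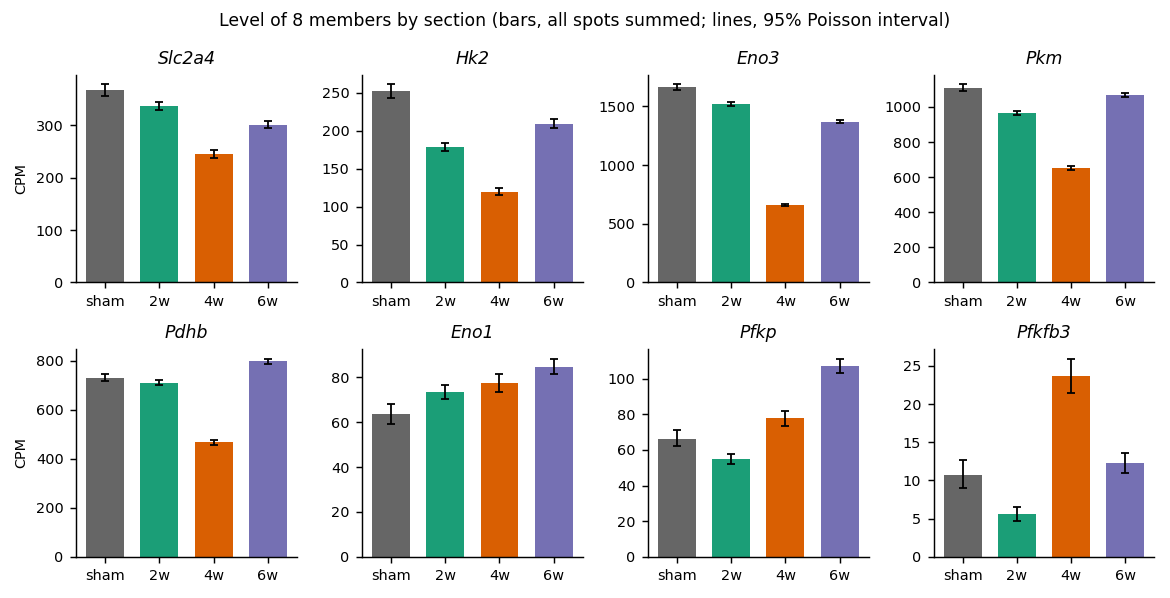
Bars give the CPM of 8 members in each section (2w, 4w and 6w are weeks after TAC) with exact 95% Poisson intervals for counting error. Slc2a4, Hk2, Eno3, Pkm and Pdhb had their lowest bar in TAC-4w, Eno1 and Pfkp their highest in TAC-6w, and Pfkfb3 its highest in TAC-4w.

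Lactate dehydrogenase interconverts pyruvate and lactate, through heart (Ldhb) and muscle (Ldha) subunits. Ldhb was at 2436, 2362, 1871 and 2012 CPM, with ratios of 0.768 (0.756 to 0.780) at 4 weeks and 0.826 (0.814 to 0.838) at 6 weeks, and 0.969 (0.956 to 0.983) at 2 weeks that turned to 1.13 with mitochondrial genes kept in. Ldha, a known target of hypoxia-inducible factor whose promoter is printed above, was at 923, 837, 841 and 891 CPM. Its ratios, 0.906 (0.886 to 0.927), 0.911 (0.889 to 0.933) and 0.965 (0.944 to 0.987), were at or a little below 1 with mitochondrial genes left out and 1.06, 1.09 and 1.11 with them kept in, so no direction is given for it. Lactate leaves or enters cells through the monocarboxylate carriers. Slc16a1 (MCT1), the form of heart muscle, was at 190.4, 147, 218 and 195 CPM, below sham at 2 weeks (0.775, 0.736 to 0.815) and above it over all spots at 4 weeks (1.14, 1.09 to 1.205). In matched spots it was 203 CPM (191 to 216) in TAC-4w and 191 (180 to 202) in sham, with intervals that overlap. Slc16a3 (MCT4), the export form of glycolytic cells, had 25, 31, 64 and 83 UMIs. Its ratios of 1.75 (1.09 to 2.90) at 4 weeks and 1.55 (0.982 to 2.53) at 6 weeks were past the limit on few counts, and without the spots at the tissue edge they were 1.39 and 1.45. The neutrophil marker sums given for Pfkfb3 were highest in the same TAC-4w section, and their part in the Slc16a3 values was not tested.

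At the entry to the mitochondrion, the pyruvate carrier was the highest of all members relative to sham at 2 weeks. Mpc2 was at 898, 1213, 769.5 and 883 CPM and Mpc1, its partner subunit, at 703, 900.2, 729 and 683 CPM. The 2-week ratios were 1.35 (1.32 to 1.38) for Mpc2 and 1.28 (1.2499 to 1.31) for Mpc1, the next highest were Eno1, Gapdh and Dlat, and both carrier subunits had returned to between 0.857 and 1.04 times sham at 4 and 6 weeks. The sham and TAC-2w sections were of 1 batch by the labels, and the cause of the difference was not tested. The pyruvate dehydrogenase complex makes acetyl-CoA from pyruvate. Its E1 subunits Pdha1 and Pdhb were at 1098, 971, 847 and 901 CPM and 730.0, 710.2, 467 and 797 CPM. Pdhb was called lower in TAC-4w, at 0.639 (0.620 to 0.658), as the member nearest to the limit on its inner side, and was at 1.09 (1.07 to 1.12) at 6 weeks, while Pdha1 was 0.771 (0.753 to 0.789) and 0.820 (0.803 to 0.837) times sham. Dlat, the E2 subunit, was at 369, 398, 299 and 358 CPM, with 1.08 (1.04 to 1.12) at 2 weeks and 0.810 (0.779 to 0.842) at 4 weeks. The kinases Pdk1 and Pdk2 switch the complex off. Pdk2, the lower of these relative to sham, was at 329, 246, 243 and 255 CPM, with ratios of 0.749 (0.721 to 0.779), 0.738 (0.708 to 0.770) and 0.775 (0.746 to 0.806). Pdk1, a target of hypoxia-inducible factor, was at 81.8, 65.8, 91.2 and 76.6 CPM and reached 1.11 (1.03 to 1.21) at 4 weeks after 0.805 (0.745 to 0.870) at 2 weeks.

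The share of a gene in its pair needs no total, and so does not depend on how mitochondrial genes are treated. Because transcripts of 2 genes need not be captured equally well, each share is read between sections and not as a ratio of molecules. Slc2a1 made up 5.68% (5.05 to 6.36) of Slc2a1 and Slc2a4 UMIs in sham, 4.61% (4.20 to 5.04) in TAC-2w, 6.95% (6.25 to 7.70) in TAC-4w and 6.14% (5.64 to 6.67) in TAC-6w. The differences from sham were -1.07, 1.27 and 0.460 percentage points, and the intervals of TAC-4w and TAC-6w overlap that of sham. In matched spots that of TAC-2w does too, at 4.01 to 5.03% beside 5.00 to 6.98% in sham. The higher share at 4 weeks went with a Slc2a1 level below sham, beside a still lower Slc2a4.

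Ldha made up 27.5, 26.2, 31.0 and 30.7% of Ldha and Ldhb UMIs, which is -1.32, 3.53 and 3.21 percentage points from sham. In matched spots these differences were -0.929, 3.34 and 3.76. The shift at 4 and 6 weeks came with Ldhb below sham and Ldha near it. Eno1 made up 3.69, 4.62, 10.5 and 5.84% of enolase UMIs, and Hk1 33.7, 40.4, 54.9 and 38.1% of Hk1 and Hk2 UMIs, so that in both pairs TAC-4w stood highest and all TAC sections were above sham. Pfkp made up 8.09, 6.85, 12.0 and 14.0% of Pfkp and Pfkm UMIs, with TAC-6w highest, and Pfkl 11.9, 11.5, 11.5 and 14.8% of Pfkl and Pfkm UMIs. Pdk1 made up 19.9, 21.1, 27.3 and 23.1% of the kinase pair. Pgam1 differed by less than 1 percentage point from sham in every section, at 9.78, 9.36, 10.6 and 9.34%, and Slc16a3 stayed between 0.757% and 1.57% of the carrier pair. At 4 weeks the shares of Eno1, Hk1, Ldha, Pfkp, Pdk1 and Mpc1 lay above sham and at 2 weeks those of Slc2a1, Ldha, Pfkp and Mpc1 below it, with intervals that did not overlap that of sham, while the other shares overlapped sham at these times apart from those of Eno1 and Hk1 at 2 weeks. In matched spots the 2-week intervals of Slc2a1, Ldha, Pfkp and Mpc1 all overlapped that of sham, whereas the 4-week intervals named here still did not.

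**Figure D3:**
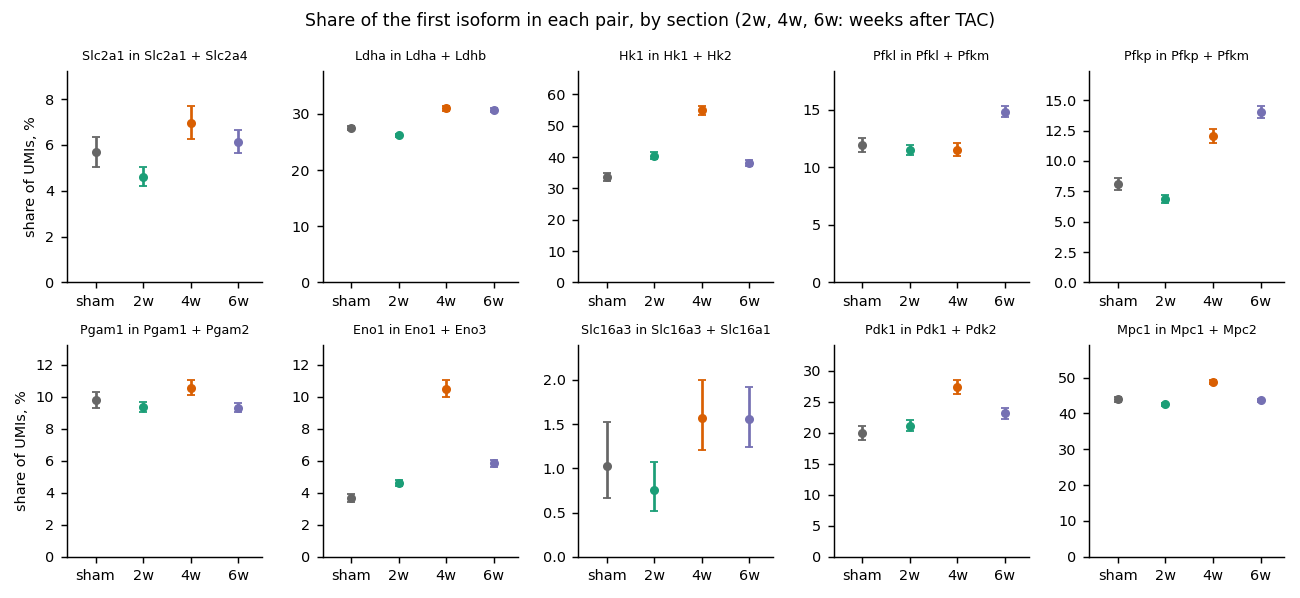
Each panel gives the share of a pair's UMIs that belonged to its first-named gene in each section, with exact 95% Clopper-Pearson intervals and axes that start at 0. Eno1 reached 10.5% in TAC-4w from 3.69% in sham, and Pfkp 14.0% in TAC-6w from 8.09%.

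Within each section, the members were compared between the tenth of spots with the highest summed CPM of a marker list and all other spots. Eno3 and Ldhb were lower in the spots rich in macrophage, collagen, smooth muscle, haemoglobin or ventricular stress genes, in 4 of 4 sections and with intervals below 1 in each. The same held for Aldoa, and for Gapdh apart from stress-rich spots, where 3 of 4 intervals were below 1. Haemoglobin genes stayed in the total, at 145121 CPM in the haemoglobin-rich spots of sham and 16324 in the rest. Choosing spots by these genes thus by itself lowers the CPM of all other genes there, so the haemoglobin list is not read as a separate result. The Eno3 ratios ran from 0.864 to 0.953 for macrophage-rich spots and from 0.853 to 0.908 for stress-rich spots, and the Ldhb ratios from 0.880 to 0.937 and 0.822 to 0.922. Hk2 was likewise lower in macrophage-rich spots in 4 of 4 sections (0.815 to 0.909). The cardiomyocyte markers moved with these values, at 40253 CPM in macrophage-rich spots of TAC-4w and 44517 in the rest, they were lower in the marker-rich spots of every list and section, and their part was not tested. Pfkp was above the rest in stress-rich spots of 4 of 4 sections, at 1.05 to 1.34, with intervals above 1 in 2 of them. Pfkfb3 was above the rest in macrophage-rich spots of all sections, at 1.22 to 1.45, of which only the interval of TAC-4w, on 64 against 372 UMIs, excluded 1 (1.34, 1.01 to 1.75). It was also above the rest in smooth muscle-rich spots of all sections, at 1.10 to 1.81, with 1 interval above 1. No member with 50 or more UMIs in the smaller group had intervals above 1 in all sections for any list.

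Genes around the pathway were read from 6 further lists. Of 19 other enzymes and carriers with enough UMIs, Pdk4, a kinase that closes pyruvate dehydrogenase and a target of nuclear receptors that sense fatty acids, was called higher in every TAC section, at 160.3, 384, 891 and 367 CPM. Its ratios were 2.40 (2.28 to 2.51), 5.56 (5.30 to 5.82) and 2.29 (2.18 to 2.41), the highest of that list at each time, whereas its relatives Pdk1 and Pdk2 among the members stayed within 1.5-fold of sham. The medians of this list, 0.905, 0.815 and 0.934, lay close to those of the members.

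Of all genes, 1.61%, 7.53% and 8.52% were called higher and 9.93%, 6.23% and 2.04% lower at 2, 4 and 6 weeks. Counts of 0 or 1 gene in a list are not read as results about that list. Among the 12 glycogen genes, 0, 1 and 1 were higher and 1 was lower at each time, namely Phkg1, the catalytic subunit of muscle phosphorylase kinase, at 0.566 (0.483 to 0.663), 0.625 (0.527 to 0.742) and 0.422 (0.355 to 0.501). The higher ones were Phka1 at 4 weeks (1.68, 1.51 to 1.87) and Ugp2, which makes UDP-glucose, at 6 weeks (1.85, 1.79 to 1.92). Of 7 pentose phosphate genes, 1 was lower at 2 weeks (G6pdx, its entry enzyme, 0.653, 0.503 to 0.852), 1 at 4 weeks (Rpe, 0.599, 0.462 to 0.776) and 0 at 6 weeks, with 0 higher. Of 10 genes of the malate-aspartate and glycerol phosphate shuttles, which move reducing equivalents into mitochondria, 1 was higher, Gpd1 at 4 weeks (1.66, 1.51 to 1.83). Other genes induced by low oxygen, 10 with enough UMIs, had medians of 0.786, 0.854 and 0.970 with mitochondrial genes left out. Keeping mitochondrial genes in raises every ratio, so no direction is given for this list. At 2 weeks 0 were higher and 4 lower (Adm 0.536, Egln3 0.541, P4ha1 0.586 and Ndrg1 0.578), where 9.93% of all genes were lower. At 4 weeks Bnip3 was higher (1.73, 1.67 to 1.79) and Egln3 and P4ha1 lower (0.370 and 0.561), where 7.53% of all genes were higher and 6.23% lower. At 6 weeks none passed the limit. The 12 genes of fatty acid oxidation stood above the members at 4 weeks. Their median ratios were 1.09, 1.23 and 0.899, and Fabp3, the heart fatty acid binding protein, was highest at each time (1.43, 1.90 and 1.28).

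In the libraries, 7965, 6293, 6531 and 5399 cells were kept from the hearts, again in the order of time, with median depths of 9131, 10717, 4449 and 4743 UMIs. Here batch 3 joined sham with TAC-6w, and TAC-2w and TAC-4w were each in a batch of their own. Pairs of libraries shared 9 to 30 cell barcodes. Cells were grouped by clustering without the members, and a cluster was named only from its markers. Few cardiomyocytes were among them (107, 73, 23 and 10 cells), and their leading genes joined the atrial Sln and Myl7, which the sections all but lacked, with the ventricular Myl2 and Myl3, so the muscle values below need not be those of the ventricular muscle in the sections. The TAC-4w library held far fewer fibroblast-like cells (431, beside 2875 to 4485) and macrophage-like cells (184, beside 902 to 1604) and more B cell-like and neutrophil-like cells than the others.

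Over types with at least 50 cells, the muscle forms Eno3, Pgam2 and Pfkm and the heart form Ldhb were highest in the cardiomyocyte-like cells. Mean CPM over libraries was 1238 for Eno3, 1372 for Pgam2, 1454 for Ldhb and 170.4 for Pfkm, beside 10.1, 172, 153 and 17.8 in the type that came next. Gapdh, Aldoa, Tpi1, Pgk1, Ldha, Mpc1, Mpc2, Pdha1, Pdhb, Dlat and Pdk2 were also highest there, at 4263 CPM for Gapdh, 1733 for Mpc1, 1173 for Mpc2 and 509 for Ldha. Pfkfb2 was highest there too, but at only 7.33 CPM on fewer than 50 UMIs. In these cells of sham and TAC-2w, Eno1 made up 2.03% and 1.39% of enolase UMIs and Ldha 22.6% and 28.8% of lactate dehydrogenase UMIs. In fibroblast-like cells of the same libraries the shares were 90.7% and 91.5% for Eno1 and 79.5% and 72.4% for Ldha. The section shares of both genes thus lay nearer to the cardiomyocyte-like cells than to the fibroblast-like cells. Slc2a1 had 0 UMIs in all 213 cardiomyocyte-like cells, which allows up to 3.74 CPM, and Slc2a4 was higher in smooth muscle or pericyte-like cells (60.4 CPM) than in them (18.4 CPM). The latter value, from 13.2 and 23.6 CPM in 2 libraries, rests on fewer than 50 UMIs. The sections, at 246 to 368 CPM, did not show this order. There the Slc2a4 ratio of smooth muscle-rich spots to the rest was 0.851 to 0.963, with intervals below 1 in 2 sections.

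The widely expressed forms had their highest level in several other types. Slc16a3 was concentrated in 1 of them, with 710.0, 893, 625 and 682 CPM in neutrophil-like cells of the 4 libraries and 15.9 CPM in the type that came next. Slc2a1 (73.1 CPM) and Gpi1 (431 CPM) were highest in the same cells. Platelet-like cells led for Slc2a3 (469 CPM, before 299 in neutrophil-like cells), Hk1 (213) and Pkm (994). NK cell-like cells led for Eno1 (208 CPM) and Pfkp (154), T cell-like cells for Pdk1 (36.9), B cell-like cells for Aldoc (6.02), endothelial cell-like cells for Pfkl (54.6) and smooth muscle or pericyte-like cells for Pgam1 (166). The orders for Gpi1, Pdk1 and Pfkl held in 3 of 4 libraries. Platelet-like, NK cell-like and smooth muscle or pericyte-like cells reached 50 cells in only 2 libraries, as did cardiomyocyte-like cells. Their means and leads thus rest on those 2 libraries. Slc16a1 had no clear leading type, since the dividing cells were at 2.96, 8.24 and 58.7 CPM in the libraries up to 4 weeks and 74 of the 100 UMIs of this type in the 4 libraries were from TAC-4w. The heart's own cells differed too. Pfkfb3 was highest in macrophage-like cells, at 76.7, 80.1, 56.9 and 66.6 CPM in the 4 libraries, with 58.0, 53.1, 20.2 and 17.0 in endothelial cell-like cells. Hk2 was highest in fibroblast-like cells in 3 of 4 libraries, at 227, 229, 61.0 and 231 CPM, while in TAC-4w macrophage-like cells were above them at 83.5 CPM. Cardiomyocyte-like cells were at 58 CPM, but all 213 of them held only 46 Hk2 UMIs. In the sections, Hk2 in collagen-rich spots was 0.863 to 0.914 times the rest, with intervals below 1 in 3 of 4 sections.

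**Figure D4:**
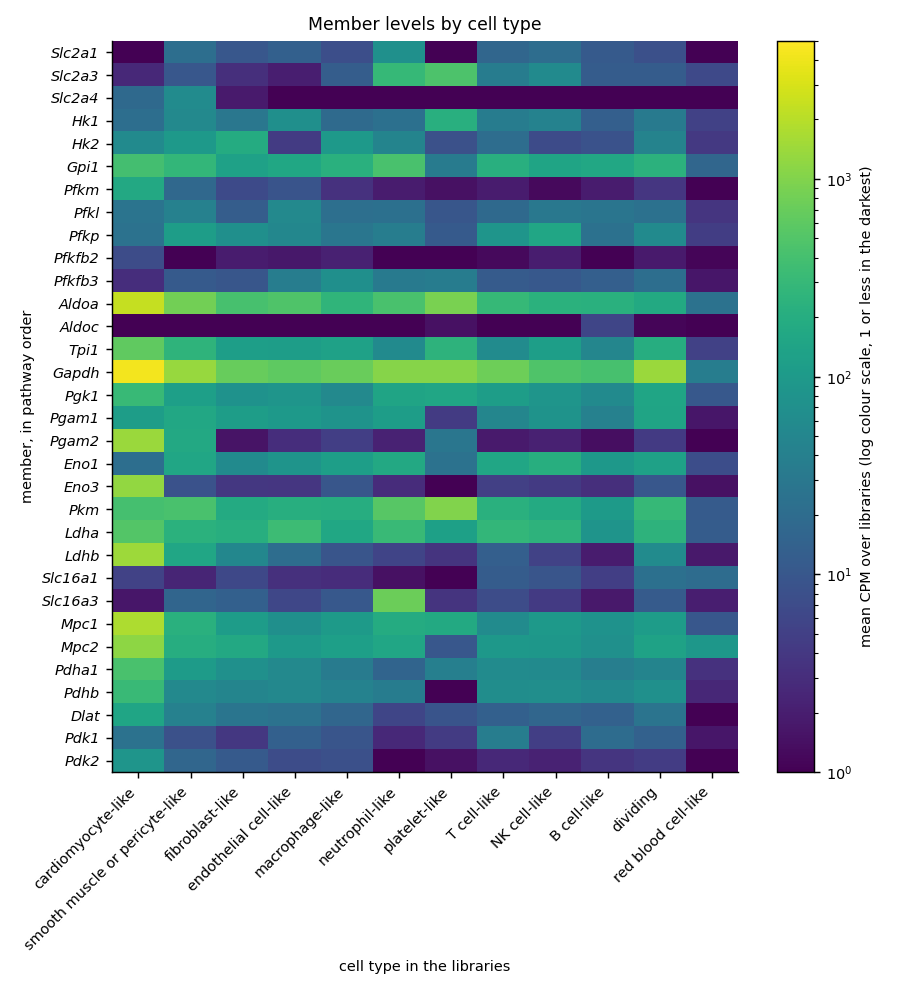
Colours give the mean CPM over the libraries with at least 50 cells of a type, on a log scale, for each member (rows, in pathway order) in 12 cell types (columns). Eno3, Pgam2 and Ldhb are brightest in the cardiomyocyte-like column, Slc16a3 in the neutrophil-like column and Slc2a3 in the platelet-like and neutrophil-like columns.

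The TAC-6w and sham libraries, of 1 batch, were compared in fibroblast-like, macrophage-like and endothelial cell-like cells. The summed member level was 1.02 (1.01 to 1.03) times sham in fibroblast-like cells, 0.873 (0.851 to 0.896) in macrophage-like cells and 1.19 (1.13 to 1.24) in endothelial cell-like cells. The median member ratio was 0.945, 0.802 and 1.07 in these types, beside 0.932, 0.867 and 0.926 over all genes with enough UMIs. In fibroblast-like cells, 1 of 31 members was higher and 3 lower, where 6.69% of all genes were higher and 15% lower. The higher one was Eno1, at 44.8 CPM in sham and 77.4 in TAC-6w, a ratio of 1.73 (1.61 to 1.85). Within the largest fibroblast-like cluster it was 46.4 and 81.6 CPM, and within the second 38.5 and 50.5. The lower members were Slc2a4 (0.325, 0.180 to 0.549), Slc16a1 (0.584, 0.456 to 0.740) and Pdha1 (0.651, 0.605 to 0.699). Pfkp, called higher in the TAC-6w section, was 85.4 CPM in sham and 56.8 in TAC-6w within the largest cluster. Within the second it was 62.8 and 44.7 CPM. Ldha was 1.16 (1.12 to 1.198) times sham and Ldhb 0.758 (0.699 to 0.821), and the Ldha share was 85.6% in TAC-6w and 79.5% in sham. Myh6 in these cells was at 23.5 CPM in sham and 1.78 in TAC-6w, and its part in the Slc2a4, Pdha1 and Ldhb values and in the Ldha share was not tested.

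In macrophage-like cells, 1 of 28 members was higher and 7 lower, where 4.15% of all genes were higher and 19.3% lower. Hk2, the higher one, had 87.0 CPM in sham and 134 in TAC-6w, a ratio of 1.54 (1.37 to 1.72). Of the lower ones, Pgk1 was 0.571 (0.466 to 0.695), Pgam1 0.556 (0.465 to 0.662) and Dlat 0.566 (0.384 to 0.812) times sham. The others, the muscle forms Pfkm, Pgam2 and Eno3 and the heart form Ldhb, were at 0.493, 0.276, 0.443 and 0.601 times sham. Myh6, a heart muscle myosin that macrophages should lack, moved with them, from 49.6 CPM in sham to 9.51 in TAC-6w, and the part of free cardiomyocyte RNA was not tested.

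In endothelial cell-like cells, 4 of 19 members were higher and 4 lower, where 11.5% of all genes were higher and 23% lower. Eno1 was again the highest, at 47.6 CPM in sham and 113 in TAC-6w, a ratio of 2.37 (1.81 to 3.09), followed by Hk1 (1.55, 1.15 to 2.08), Pfkl (1.52, 1.08 to 2.10) and Gapdh (1.52, 1.38 to 1.67). Pfkfb3 was the lowest, at 0.293 (0.157 to 0.503), before Ldhb (0.524, 0.261 to 0.963), Pdha1 (0.549, 0.359 to 0.813) and Pgk1 (0.647, 0.476 to 0.865). The makeup of this type differed, since a cluster led by H19 and Npr3 held 178 of 494 cells in sham and 18 of 200 in TAC-6w. Within the other cluster Pfkfb3 was 37.0 CPM in sham and 15.1 in TAC-6w on 11 UMIs, and Eno1 was 64.5 and 118 CPM. Pfkp was 61.4 CPM in sham and 48.2 in TAC-6w there, on 35 UMIs in TAC-6w. In the H19 and Npr3 cluster Pfkp was 27.4 and 50.7 CPM, on only 5 UMIs in TAC-6w. Myh6 in this type was at 65.6 and 1.21 CPM, beside the Ldhb values, and its part was not tested.

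**Figure D5:**
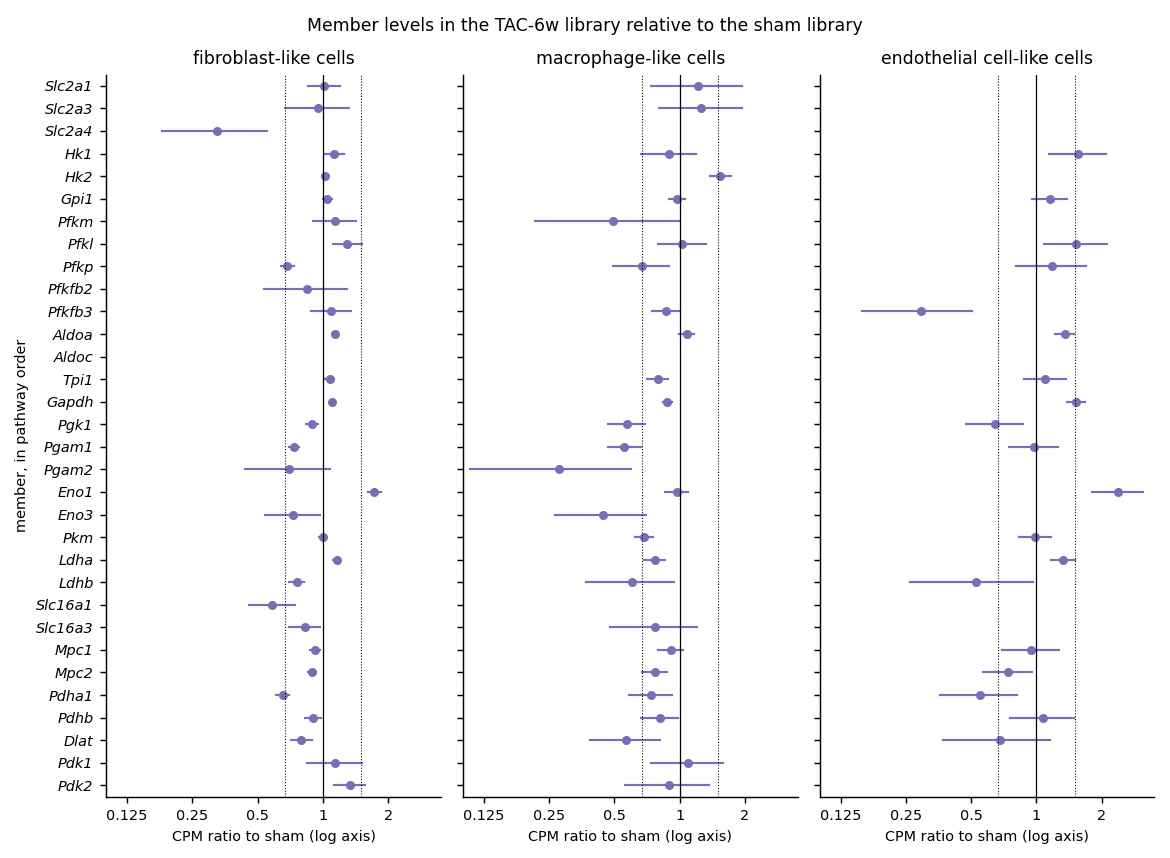
Points give each member's CPM in the TAC-6w library divided by that in the sham library for 3 cell types, on a log axis, with exact 95% intervals for counting error. Members with fewer than 50 UMIs in both libraries have no point, and Eno1 stands at 1.73 in fibroblast-like and 2.37 in endothelial cell-like cells but at 0.971 in macrophage-like cells.

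The other libraries differ from sham in batch as well as condition. In TAC-2w the members had ratios of 0.777 (Slc2a1) to 1.46 (Pfkfb3) in fibroblast-like cells, 0.683 (Slc16a3) to 1.199 (Pgam2) in macrophage-like cells and 0.873 (Dlat) to 1.31 (Eno1) in endothelial cell-like cells. Of 31, 28 and 19 members in these types, 0 were called higher or lower. Few genes of any kind were called there. Of all genes, 278 of 12474, 139 of 9857 and 320 of 7544 were higher, and 190, 101 and 236 were lower. In TAC-4w fibroblast-like cells, 3 of 31 members were higher, namely Pfkm, Pfkfb3 and Pdk1, where 1551 of 12400 genes were. Another 3 were lower, namely Slc2a4, Hk2 and Pgam2, where 1057 genes were. Myh6 in these cells was at 23.5 CPM in sham and 1.31 in TAC-4w, and its part in the lower members was not tested. Hk2 was 0.269 (0.242 to 0.298) times sham, and the lower level was seen within each fibroblast-like cluster, at 69.7, 53.1 and 57.4 CPM in TAC-4w beside 230.2, 221 and 116 in sham. Pfkfb3 was 2.65 (2.10 to 3.33) times sham, but 208 of the 431 cells lay in a cluster led by Gdf10, Comp and Cthrc1 that held 79 of 4485 in sham. Within that cluster Pfkfb3 was 14.3 CPM in sham and 27.6 in TAC-4w, and in the largest cluster 5.72 and 4.78 CPM, on 10 UMIs in TAC-4w. Hk2 was thus low in TAC-4w fibroblast-like cells and in the TAC-4w section alike, both of which were in a batch of their own. The part of fibroblasts in the section value was not tested. In macrophage-like cells of TAC-4w, 6 of 28 members were higher, namely Slc2a1, Slc2a3, Pfkp, Slc16a3, Mpc1 and Mpc2, where 1082 of 9420 genes were. Another 4 were lower, namely Pfkm, Pgam2, Eno3 and Pdk1, where 1316 genes were. Myh6 in this type was at 49.6 CPM in sham and 3.69 in TAC-4w, and its part was not tested. In endothelial cell-like cells of TAC-4w, 5 of 21 members were higher and 2 lower, where 1684 and 980 of 8150 genes were. The higher ones were Eno1 at 2.14 (1.77 to 2.59) times sham, Hk1 at 1.85 (1.54 to 2.24), Slc2a1, Pfkp and Pdk1. The lower ones were Pfkfb3 at 0.348 (0.265 to 0.453) times sham and Ldhb, beside Myh6 at 65.6 CPM in sham and 2.68 in TAC-4w. The larger endothelial cell-like cluster held 476 of 478 of these cells, and within it Pfkfb3 was 37.0 CPM in sham and 20.3 in TAC-4w.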

How the data were processed

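Raw UMI counts per gene were deposited by the authors for 4 Visium sections and 4 single-cell libraries. The file headers name cellranger 6.0.0 and spaceranger 1.2.0, whereas the labels list Cell Ranger 7.0.0, Space Ranger 1.3.1 and the build mm10. The labels describe nuclei and the study's methods a cell suspension, and the profiles are called cells without a decision. The study states 5 mice per group. The members and lists were chosen with earlier results of these data known.

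Section counts were summed over spots, divided by the total without mt- genes and expressed per 1000000 UMIs, with rows of 1 symbol added up. Exact Poisson intervals were used for levels, conditional binomial intervals for ratios and Clopper-Pearson intervals for shares (scipy 1.17.1), and the ratio code was tested on simulated data. Intervals and limits at a count of 0 (3 UMIs) cover counting error only. Both genes of each isoform pair and the 5 highest and 5 lowest members per comparison were named in full, with the 2 highest and 2 lowest of each related list as the candidates for naming there. Some genes of these lists are not reported here.

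Cells with 200 to 6000 genes, 500 to 30000 UMIs and under 15% mitochondrial UMIs were kept and the top 3.2% by Scrublet score removed (scanpy 1.11.5, 178 to 263 cells per library). Clustering used Seurat 5.3.0 in R 4.3.3 with 3000 variable genes without the members, 30 components and resolution 0.25. No column of per-sample values was left unused. Marker sums, regions, promoters and figures were computed with Python 3.11.15 (numpy 2.4.6, pandas 2.3.3, matplotlib 3.10.9). Alternatives covered the total, matched depth, tissue edge, UMI minimum, fold, cell filters and clustering.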

Additional observations from a re-analysis of the deposited data

Results flagged for a closer look

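Pfkfb3 moved in opposite directions in 2 pairs of comparisons. In the sections it was 2.20 (1.81 to 2.69) times sham 4 weeks after TAC and 0.518 (0.408 to 0.658) times sham 2 weeks after TAC. In the TAC-4w library it was 2.65 (2.10 to 3.33) times sham in fibroblast-like cells and 0.348 (0.265 to 0.453) times sham in endothelial cell-like cells. Neither difference was tested, since each condition had 1 sample per assay, and the sham sample is shared within each pair.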

How the results depend on the processing

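No paired analysis was possible because each group has 1 sample. No member called in a section changed direction under any alternative run. The calls of single members in cell types were not rerun under the alternatives. Members higher at 2 weeks numbered 1 with mitochondrial genes kept in, 1 relative to the median of all genes and 2 at the lower fold limit tried, against 0, and members lower numbered 3 with a minimum of 20 UMIs, 0 with 200, 5 at the lower fold limit and 0 at 2-fold, against 1. At 4 weeks, 1 was higher in matched spots, without edge spots, with 200 UMIs and at 2-fold, against 2, and the lower members numbered 2 with mitochondrial genes kept in and at 2-fold, 13 at the lower fold limit and 6 with haemoglobin genes left out or in matched spots, against 5. At 6 weeks, 1 was higher relative to the median, in matched spots, without edge spots and with 200 UMIs and 0 at 2-fold, against 2, and 3, with Eno1 added, with mitochondrial genes kept in or at the lower fold limit, and 1 was lower at the lower fold limit, against 0. The Ldha share at 6 weeks was 3.76 percentage points above sham in matched spots.

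Summed levels in cells moved with their treatment by more than counting error, and the values of the report's own treatment at 2 and 4 weeks were 0.943 and 0.822 in fibroblast-like cells, 1.01 and 1.13 in macrophage-like cells and 1.06 and 1.07 in endothelial cell-like cells. In fibroblast-like cells they were 0.951 at 2 weeks as a mean of cells, 0.909 at 4 weeks with under 5% mitochondrial UMIs and 0.807 with cells named by their own scores, and 1.04 at 6 weeks with all genes in the total. In macrophage-like cells they were 0.989 and 0.995 at 2 weeks with members kept in the clustering or own scores. At 4 weeks they were 1.08 with doublets kept, 0.996 with no filter, 1.05 at resolution 0.5, 1.08 with own scores and 1.03 as a mean of cells, and at 6 weeks 0.898 with members kept in or all genes in the total. In endothelial cell-like cells they were 1.02 at 2 weeks with doublets kept, 0.997 with no filter and 1.02 as a mean of cells, then 1.04, 1.16, 1.02 and 1.02 at 4 weeks with doublets kept, under 5% mitochondrial UMIs, no filter and a mean of cells, and 1.30 at 6 weeks with under 5% mitochondrial UMIs. The values of 0.989, 0.995, 0.996 and 0.997 lie below 1 where those of the report's treatment lie above it. The cause was not tested. Of the other values, 195 of single members moved by more than their counting error and 435 did not. Slc2a3, Slc16a3, Aldoc and Pfkfb3 rest on the fewest counts.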
